A study of Mus musculus with 6 samples.

Results

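The genes described here were 9 regulators and receptors of T cell quiescence and recirculation, namely Foxo1, Foxo3, Foxp1, Klf2, Klf3, Klf6, Klf13, S1pr1 and Il7r. They were chosen by gene symbol, and every array probe annotated to one of these symbols was taken, giving 19 of the 45281 probes on the array and 9 of the 19057 genes with a named probe. FOXO and FOXP1 proteins belong to the forkhead family and KLF proteins to the zinc finger family of transcription factors, and several of them hold T cells in a resting, circulating state. In naive T cells FOXO1 maintains transcription of Klf2 and Il7r, and KLF2 in turn drives S1pr1, the receptor through which T cells leave lymphoid organs along a gradient of sphingosine 1-phosphate. Antigen receptor and cytokine signals reach FOXO1 through AKT and SGK1 kinases, which move it out of the nucleus.

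RNA came from sorted CD4+ Foxp3-GFP+ pTreg cells, that is, Foxp3+ regulatory T cells that arose in the periphery from naive T cells. Naive CD4+ T cells of Ctrl mice (Prdm1+/+ CD4-Cre+, Thy1.1+) and of CKO mice (C57BL/6 Prdm1flox/flox CD4-Cre+, Blimp1CKO, Thy1.2+), all carrying the Foxp3-GFP reporter, were injected together in equal number into RAG1-/- mice, which have no T or B cells of their own, and pTreg cells of both origins were recovered from the same hosts weeks later. Prdm1 encodes the transcription factor Blimp1, and CD4-Cre is active in all T cells from the thymus on, so the deletion preceded the transfer. Donor lymph nodes and spleens were pooled, and hosts of such transfers develop gut inflammation. There were 3 Ctrl and 3 CKO arrays, called biological replicates in the methods. One label field names the cells iTreg and another peripheral Treg cells. The labels of replicates 2 and 3 also carry the letters P+I, and those of replicate 1 do not. Both arrays of replicate 1 were on slide 1 and the other 4 on slide 2, so each slide held both genotypes.

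The values are background-subtracted, quantile normalized intensities, and a probe was called above background on an array where it exceeded the 95th percentile of that array's 1504 olfactory and vomeronasal receptor probes, a level of 6.18 to 9.55. Between 32.3% and 38.3% of all probes were above it. The Prdm1 probe read 18.9, 50.9 and 49.2 on the Ctrl arrays and 561, 341 and 704 on the CKO arrays, a log2 difference of 3.82 (SE 0.45, limma adjusted p = 0.0276). No source used here places this probe inside or outside the floxed exons, so the reading cannot serve as a check of the deletion, and Ctrl and CKO below mean the arrays labelled so. Foxp3 averaged 278 ± 178 on Ctrl and 271 ± 142 on CKO arrays (SD, n = 3). Cd3d, Cd3e and Cd3g of the T cell receptor complex were above background on all 6 arrays. So were Cd8b1, at 544 to 1031, and the myeloid genes S100a8, S100a9, Mpo, Cd14 and Lyz2, whereas Cd8a and the macrophage marker Adgre1 were above it on 0.

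In the limma fit over 9593 genes, which took the brightest probe of each gene above background on at least 2 arrays, 7 of the 9 genes could be tested. Foxp1, Klf2 and Klf13 were lower in CKO cells and met the study's thresholds, a fold of 1.5 or more together with an unadjusted p under 0.05, and 0 of the 7 met them in the other direction. Over all genes tested, 4.34% were lower and 3.09% higher at these thresholds. Of the 7 log2 fold changes (CKO minus Ctrl, as throughout) 6 were negative, beside 4567 of the 9593 genes tested. The median of the 7 was -0.46 beside 0.02 over all genes. At an adjusted p under 0.05, which 0.271% of all genes reached in both directions together, the count by limma was 0 of 7, and 3 of 7 had an unadjusted p under 0.05, beside 8.06% of all genes. Ctrl and CKO arrays of the same replicate number deviated together, and with the number as a block Foxp1 and Klf2 fell at an adjusted p under 0.05, beside 1.16% of all genes lower by that rule. In these bulk samples, fewer cells that express a gene and less of its RNA per cell cannot be told apart.

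**Figure D1:**
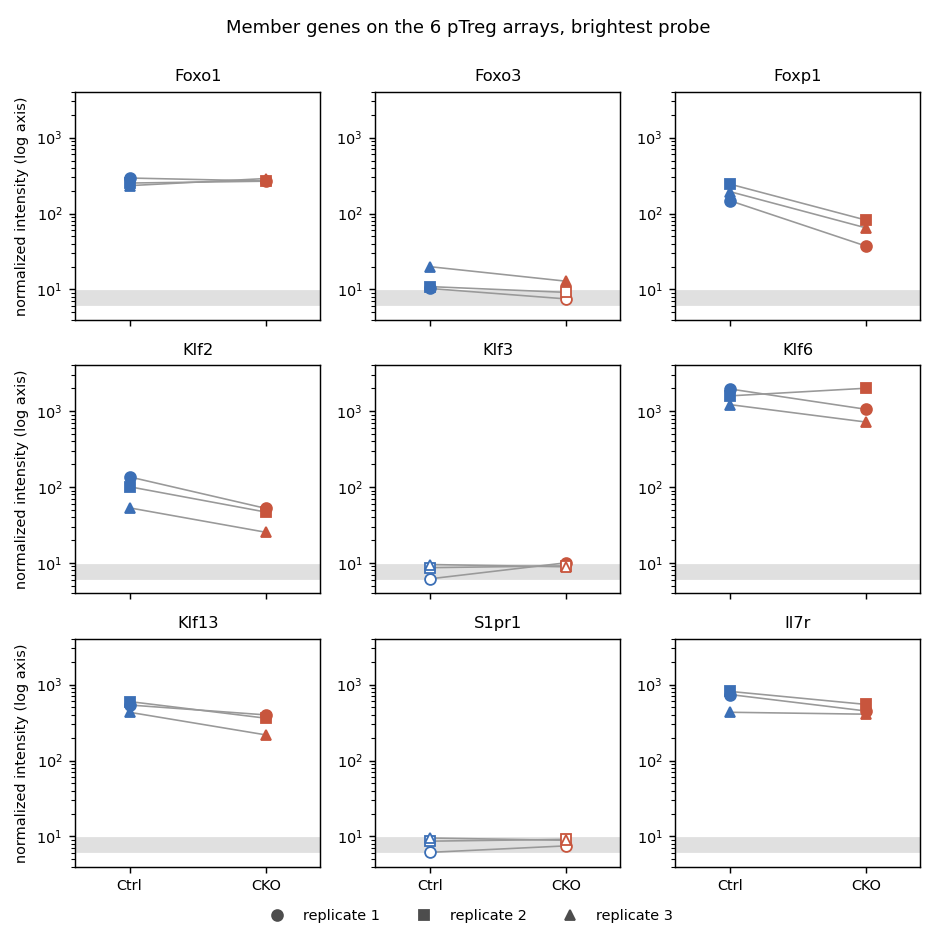
Normalized intensity (log axis) of the brightest probe of each of the 9 genes on the 3 Ctrl and 3 CKO arrays, with lines joining arrays of the same replicate number. The grey band runs from the lowest to the highest background level among the arrays, and open symbols are values at or below background, drawn at that array's background level. Foxp1, Klf2 and Klf13 were lower on the CKO array of every pair, while Klf3 and S1pr1 lay in the band on nearly all arrays.

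Foxp1, a repressor of T cell activation that competes with FOXO1 at the Il7r enhancer, showed the largest difference of the 7 genes. Its brightest probe (ILMN_1252078) read 148, 245 and 195 on Ctrl arrays 1 to 3 and 37.3, 82.1 and 64.8 on CKO arrays 1 to 3. All CKO values lay below all Ctrl values. The means were 196 ± 48.4 and 61.4 ± 22.6 (SD, n = 3), and the log2 fold change was -1.72 (SE 0.34), a 3.29-fold lower level with a limma adjusted p of 0.140. The pairs of replicates 1, 2 and 3 differed by -1.99, -1.58 and -1.59 on the log2 scale. With the replicate block the limma adjusted p was 0.0148.

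Klf2, the factor behind S1pr1 transcription and T cell exit, read 136, 101 and 53.2 on the Ctrl arrays and 52.4, 46.8 and 25.4 on the CKO arrays. The groups did not overlap, although Ctrl replicate 3 at 53.2 and CKO replicate 1 at 52.4 nearly met, and replicate 3 was the lowest in both groups. The means were 96.7 ± 41.6 and 41.5 ± 14.3 (SD, n = 3). The log2 fold change was -1.18 (SE 0.42), 2.27-fold lower, with a limma adjusted p of 0.444 without and 0.0346 with the replicate block. The pairs gave -1.38, -1.11 and -1.07. Klf2 missed the study's thresholds when Ctrl replicate 1, Ctrl replicate 2 or CKO replicate 3 was left out, with log2 fold changes of -0.89, -1.10 and -0.86.

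Klf13, a widely expressed factor known in T cells for driving the chemokine gene Ccl5, read 539, 599 and 432 on the Ctrl arrays and 399, 362 and 218 on the CKO arrays. The groups did not overlap, and the pairs differed by -0.43, -0.73 and -0.99. The means were 523 ± 84.3 and 326 ± 95.8 (SD, n = 3), with a log2 fold change of -0.72 (SE 0.29), 1.64-fold lower, and a limma adjusted p of 0.561. It did not pass with the replicate block (limma adjusted p = 0.141). Its other probe (ILMN_2464474) read 174, 92.0 and 131 against 160, 105 and 99.4, with a log2 fold change of -0.11. The mean over both probes was -0.41 and missed the study's thresholds, as did the brightest probe when 1 of 4 arrays was left out (-0.69 without Ctrl replicate 1, -0.61 without Ctrl replicate 2, -0.81 without CKO replicate 2 and -0.45 without CKO replicate 3). The 3 genes just named were also the 3 of 7 whose groups did not overlap with CKO lower, a pattern held by 7.08% of all genes tested. Each slide gave all 3 a negative value. On slide 1, the pair of replicate 1, they are given above, and on slide 2 alone they were -1.62 for Foxp1, -1.11 for Klf2 and -0.86 for Klf13, of which Foxp1 met the study's thresholds. With the slide as a block in the fit to all arrays their limma adjusted p was 0.0591, 0.282 and 0.414.

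Sequence upstream of the start site is shown for these 3 genes, because they carry the result and because KLF proteins bind GC-rich boxes that could be looked for there. The windows are the 250 bases before the annotated start, from RefSeq on GRCm38.p6, read 5′ to 3′ along the gene's strand, with capitals marking every match to CCNCNCCC or its reverse complement, overlapping matches included.
Klf2, chr8:72318812-72319061, plus strand: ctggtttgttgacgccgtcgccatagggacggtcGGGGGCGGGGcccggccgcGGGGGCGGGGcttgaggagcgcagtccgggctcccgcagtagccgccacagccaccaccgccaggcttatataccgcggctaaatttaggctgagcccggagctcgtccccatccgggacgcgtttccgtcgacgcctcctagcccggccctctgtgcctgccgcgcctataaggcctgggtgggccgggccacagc
Klf13, chr7:63938916-63939165, minus strand: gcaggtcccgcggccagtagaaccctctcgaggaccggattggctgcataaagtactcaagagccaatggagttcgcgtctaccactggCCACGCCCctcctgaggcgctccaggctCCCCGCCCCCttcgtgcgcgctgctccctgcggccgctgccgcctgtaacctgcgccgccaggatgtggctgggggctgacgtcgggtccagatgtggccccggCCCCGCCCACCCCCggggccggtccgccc
Foxp1, chr6:99520994-99521243, minus strand, the first of 3 annotated starts: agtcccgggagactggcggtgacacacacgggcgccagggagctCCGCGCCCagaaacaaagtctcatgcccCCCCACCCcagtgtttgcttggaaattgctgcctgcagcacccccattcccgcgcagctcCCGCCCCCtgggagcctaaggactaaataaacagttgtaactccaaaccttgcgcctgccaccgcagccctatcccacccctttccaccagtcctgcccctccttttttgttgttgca
The Klf2 window held 4 matches, the Klf13 window 5 and the first Foxp1 window 3. Of the other 2 Foxp1 windows, 1 held 3 matches and 1 held 0. In all, 10 windows of 8 of the 9 genes were available, 8 of them held a match, and so did 45.93% of 32851 promoters of the same length. The Blimp1 core letters GNGAAAG, which 19.35% of those promoters contain on either strand, were in 1 of the 10, at 137 bases before the Foxo1 start. The forkhead core GTAAACA, present in 3.166% of promoters, was in 0 of 10. These are matches of letters and not measured binding sites.

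Foxo1, the main FOXO factor of T cells, read 294, 252 and 233 on the Ctrl arrays and 269, 267 and 289 on the CKO arrays. The groups overlapped, and the log2 fold change was 0.09 (SE 0.21, limma adjusted p = 0.976) with a 95% interval of -0.40 to 0.57. A dimmer Foxo1 probe gave 0.11, from values of 5.31 to 27.8 near background. Foxo3, its close relative, was above background on all 3 Ctrl arrays, at 10.3, 10.9 and 19.99, and on 1 CKO array, at 12.9. Its log2 fold change was -0.45 (SE 0.34, limma adjusted p = 0.867). This value depends on the level to which the other CKO values were raised, and with background at the 99th percentile it was -0.07. The other Foxo3 probes were above background on 1 array and on 0 arrays, so that Foxo3 was measured close to background.

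Klf6, a factor induced early after cell stimulation, had readings of its brightest probe of 1963, 1589 and 1220 on Ctrl and 1059, 2004 and 719 on CKO arrays. Its pairs did not share a direction, at -0.89, 0.33 and -0.76, and the log2 fold change was -0.44 (SE 0.39, limma adjusted p = 0.903). The second Klf6 probe showed the same order of pairs, at -1.62, 0.35 and -0.64. Among the alternatives run, Klf6 met the study's thresholds only when CKO replicate 2 was left out, at -0.84. Klf3, a repressor of the same family, was above background on 1 array of 6, CKO replicate 1 at 10.0, and could not be tested.

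S1pr1, the exit receptor itself, was above background on 0 of 6 arrays, with its single probe between -7.63 and 0.42. No fold can be given. With a single probe, little S1pr1 RNA and a probe that does not respond cannot be told apart. Il7r, the receptor chain for the survival cytokine IL-7, read 741, 815 and 433 on the Ctrl arrays and 450, 549 and 408 on the CKO arrays with its brightest probe. The groups overlapped because of Ctrl replicate 3, and the pairs gave -0.72, -0.57 and -0.08. The log2 fold change was -0.46 (SE 0.30, limma adjusted p = 0.828), and without Ctrl replicate 3 it was -0.74 and met the study's thresholds.

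The probes of a gene did not all give one value. Of the 19 probes 14 were above background on at least 2 arrays, and 3 of the 14, the brightest ones of Foxp1, Klf2 and Klf13, were lower at the study's thresholds, beside 3.81% of all probes tested. The other 3 tested Il7r probes had log2 fold changes of 0.06, 0.13 and 0.54, against -0.46 for the brightest. The second Foxp1 probe (ILMN_2552236), annotated to a cDNA clone record, read 10.6, 19.5 and 9.31 on the Ctrl arrays and -0.70, 8.94 and 2.80 on the CKO arrays. It was above background on 2 Ctrl arrays and on 0 CKO arrays, so no fold is given (measured means 13.1 and 3.68, limma adjusted p = 0.797). The difference in genotype effect between the brightest and each other probe was tested with limma for all genes with several probes, a test chosen after these values were seen. Among the 7 probe pairs of these genes, 2 differed at an unadjusted p under 0.05 (Foxp1 by -1.16, where the dimmer probe gives only a bound, and Il7r by -1.003), 3.33% of all 5218 probe pairs did so, and 0 pairs passed adjustment.

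**Figure D2:**
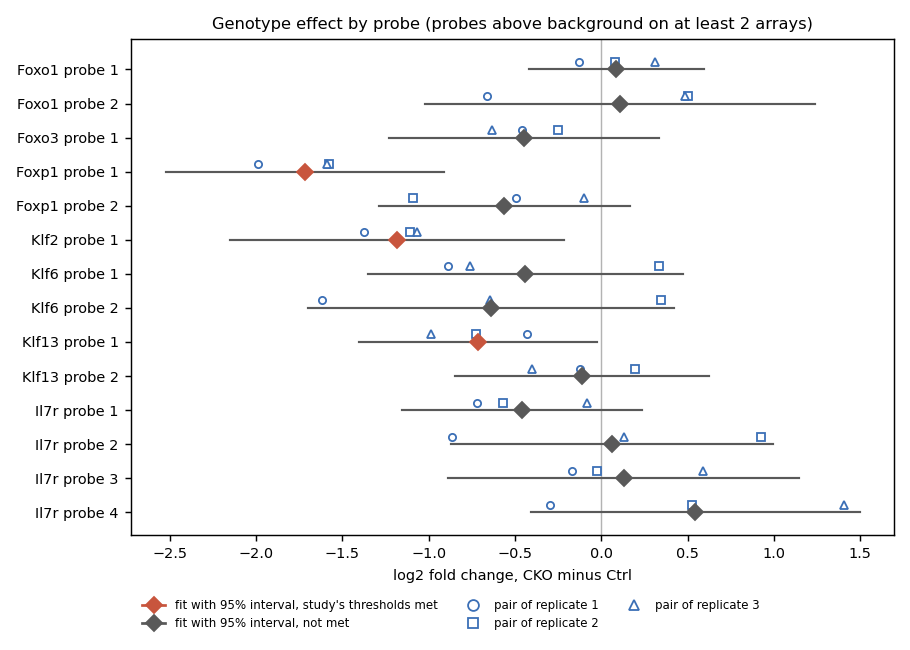
Log2 fold change (CKO minus Ctrl) of each of the 14 tested probes from the fit over all probes, with 95% intervals, and the difference within each replicate pair as open symbols. Probes are numbered within a gene from the brightest. The intervals of the brightest Foxp1, Klf2 and Klf13 probes lie below 0, and those of the other 11 probes cross it.

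Among the 9 genes, Klf2 and Klf13 ran most alike over the 6 arrays (Pearson r = 0.93 of log2 values), followed by Klf2 and Il7r (0.87). Foxp1 and Klf2 correlated less (0.59), and Foxo1 and Klf2 least in size (-0.02). These values describe 6 arrays that share 2 genotypes, 3 replicate pairs and 2 slides. Over all genes tested, those most like Foxp1 were Ep300 (0.99), a histone acetyltransferase, Gosr1 and Eci2 (both 0.99). For Klf2 they were Ddit3, a stress-induced transcription factor, Rmc1 and Wipi2 (each 0.99), and for Klf13 Phc1, Apobec1 and Csrp1 (each 0.99). Between 36 and 49 genes reached an r over 0.95 with each of the 3, so these neighbours are not set apart from many others.

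Other members of the forkhead and KLF families did not meet the study's thresholds in either direction (0 of 2 tested FOXO and FOXP genes and 0 of 6 tested KLF genes, of 5 and 13 with a probe). Their median log2 fold changes were 0.07 and -0.35. The list counts here and below stand beside 4.34% of all genes tested lower and 3.09% higher at these thresholds. Of 17 tested genes that act on FOXO proteins from upstream, 2 were lower at the thresholds and 0 higher, with a median of -0.08. They were Sgk1, a kinase that inhibits FOXO1, and Inpp5d, which encodes the inositol phosphatase SHIP1. Sgk1 read 1231, 636 and 665 on Ctrl and 395, 358 and 302 on CKO arrays, and its log2 fold change was -1.20 (SE 0.31, limma adjusted p = 0.236). Inpp5d read 107, 99.6 and 116 against 71.7, 42.1 and 51.2, with -0.999 (SE 0.26, limma adjusted p = 0.240). Neither pair of groups overlapped.

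Known FOXO target genes were tested for 18 symbols, with 5 at the study's thresholds below Ctrl, 2 above, and a median of -0.40. Bcl6, a repressor that opposes Blimp1 and is induced by FOXO in some cells, rose with a log2 fold change of 1.98 (SE 0.28, limma adjusted p = 0.0483), from 97.9, 91.3 and 136 to 500.4, 482 and 306. Sesn3, a stress-response gene, read 9.64, 12.04 and 8.28 on Ctrl and 24.9, 33.6 and 17.1 on CKO arrays, with 1.23 (SE 0.29). Gadd45a, another stress gene, went the other way, at 85.0, 63.9 and 35.3 against 20.3, 16.8 and 19.4, with -1.62 (SE 0.34). Ctla4, the inhibitory receptor of Treg cells, had -1.12 (SE 0.25), with Ctrl arrays between 6201 and 8549 and CKO arrays between 2621 and 3845. The last 3 had limma adjusted p of 0.146 to 0.204, and of 0.0406 to 0.0427 with the replicate block.

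Around S1pr1, 9 genes of the sphingosine 1-phosphate pathway were tested, and at the study's thresholds 1 was below Ctrl and 0 above, with a median of -0.04. The 1 was Gnai2, the G protein subunit that passes on signals of S1P and chemokine receptors, at 1078, 1076 and 1180 on Ctrl and 599, 664 and 791 on CKO arrays (log2 fold change -0.71, SE 0.22, limma adjusted p = 0.338). The groups did not overlap. S1pr4, the other S1P receptor typical of lymphocytes, is given although it did not meet the thresholds and was chosen after its value was seen. It had -0.54 (SE 0.30, limma adjusted p = 0.749). S1pr2, chosen in the same way, was brighter, at 242 to 495 against 24.8 to 55.1 for S1pr4. It did not meet the thresholds either (log2 fold change -0.36, SE 0.28, limma adjusted p = 0.881).

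In the pathway downstream of Il7r, 2 of 10 tested genes were lower and 1 higher, and the median was -0.49. Bcl2, the survival gene that IL-7 induces, rose with a log2 fold change of 2.53 (SE 0.30, limma adjusted p = 0.0276), from 23.8, 33.1 and 16.5 to 153, 144 and 114. The kinases that the receptor activates, Jak1 and Jak3, had values of -1.07 (SE 0.36) and -0.62 (SE 0.24), with limma adjusted p of 0.415 and 0.516.

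Of 14 tested recirculation and retention genes, 2 were lower and 2 higher, with a median of -0.14. Selplg, which encodes the selectin ligand PSGL-1, read 1403, 1615 and 1317 on Ctrl and 420, 689.7 and 716 on CKO arrays (log2 fold change -1.28, SE 0.27, limma adjusted p = 0.159 and 0.0454 with the replicate block). Itgae, the integrin chain CD103 that binds epithelium, had -0.87 (SE 0.33) and no overlap. The chemokine receptor genes Cxcr3 and Cxcr4 had 0.92 (SE 0.35) and 0.99 (SE 0.43), and for both the lowest CKO array lay within the range of the Ctrl arrays. Itgae, Cxcr3 and Cxcr4 had limma adjusted p of 0.494 to 0.618. Ccr7, the lymph node homing receptor, is a known target of both FOXO1 and KLF2 and was looked at after its values were seen. It read 92.6, 73.4 and 14.5 against 33.9, 51.7 and 63.2, so that its pairs disagreed in direction. Cd69, which removes S1PR1 from the surface, was named in the same way. It read between 4830 and 7918 on Ctrl and between 3163 and 6040 on CKO arrays. The groups overlapped, and its pairs gave -0.25, -0.39 and -0.61 (log2 fold change -0.42, SE 0.32, limma adjusted p = 0.875).

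**Figure D3:**
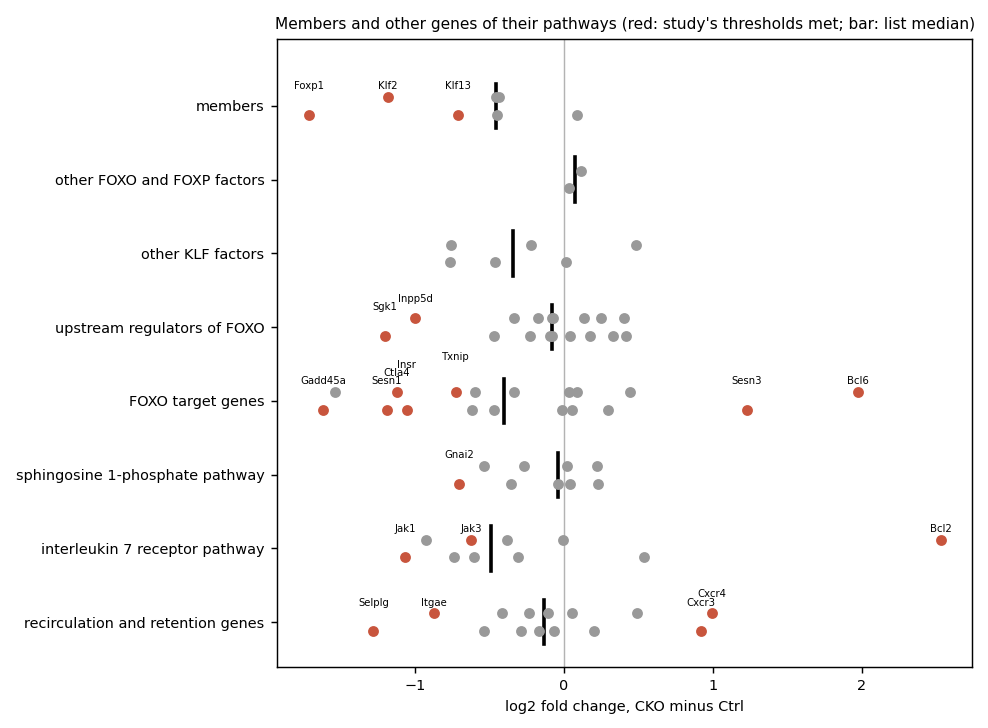
Log2 fold change (CKO minus Ctrl) of each tested gene in the member list and in 7 lists of related genes, with the list median as a bar and genes at the study's thresholds in red with their names. Points are spread vertically only for legibility. The members' 3 red points are all below 0, whereas the FOXO target, interleukin 7 receptor and recirculation lists have red points on both sides.

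Levels of myeloid markers differed between replicates. The summed level of 10 myeloid markers was 24950, 2536 and 32273 on Ctrl and 12772, 1781 and 22571 on CKO arrays 1 to 3, with 8 of the 10 tested and 0 at the study's thresholds, S100a8 and S100a9 the brightest, and the defining markers Itgam and Adgre1 above background on 0 arrays. The sum was lower on the CKO array of every pair, but single markers were not: in the pair of replicate 2, Cd14, Lyz2 and Mpo were higher on the CKO array, by 0.98, 1.05 and 0.39 on the log2 scale. In the pair of replicate 2, where that sum was lowest, Foxp1, Klf2 and Klf13 differed by -1.58, -1.11 and -0.73. Without both arrays of replicate 3, which had the highest sum, Foxp1 and Klf2 met the study's thresholds and Klf13, at -0.58, did not. The 4 erythroid markers summed to 3388, 1446 and 5004 on Ctrl and 1935, 1510 and 4073 on CKO arrays, and the 6 B cell markers to between 25.5 and 50.7 on all arrays. At the study's thresholds were 0 of 4 tested erythroid, 0 of 4 tested B cell and 0 of 3 tested CD8 and NK cell markers, and 1 of 3 tested epithelial and stromal markers, Pecam1, with a log2 fold change of 1.21. The part of any of these cells in the members' values was not tested. Stimulation lowers Klf2 in T cells, and the median of 36 early stimulation genes was 1997, 1323 and 1603 on Ctrl against 1290, 1912 and 893 on CKO arrays. It was lower on the CKO arrays of replicates 1 and 3 and higher on that of replicate 2. Of these 36 genes, 33 or 34 were above background on every array. Il2, picked after its values were seen, read 9308 on Ctrl and 8597 on CKO of replicate 1. It ranged from 6980 to 13107 on the other arrays. The labels do not explain the letters P+I that replicates 2 and 3 carry, so whether the replicates were stimulated alike is not known here. The part of stimulation in the members' values was not tested. At the study's thresholds 3 of 34 tested early genes were lower (Zfp36, Ccl4 and Ccl3) and 1 higher (Xcl1), with a list median of -0.27. A list of general CD4 T cell and Treg markers had 3 of 12 lower and 0 higher. All 3 (Ctla4, Tnfrsf18 and Ikzf2) were Treg markers, while the Treg markers Foxp3 and Il2ra did not meet the thresholds.

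**Figure D4:**
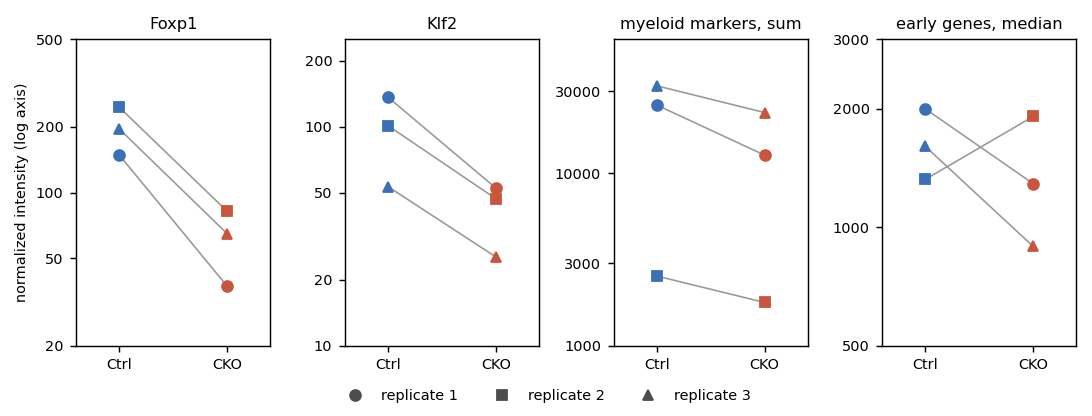
Normalized intensity (log axes) of Foxp1 and Klf2, the summed intensity of the myeloid markers and the median intensity of the early stimulation genes on each array, with lines joining arrays of the same replicate number. Foxp1, Klf2 and the myeloid sum are lower on the CKO array in all 3 pairs, and the early gene median is lower on it in the pairs of replicates 1 and 3 and higher in that of replicate 2.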

How the data were processed

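Total RNA of sorted pTreg cells was amplified and hybridized to Illumina MouseWG 6v2 arrays. The authors exported intensity values from Genome Studio and quantile normalized them, and the deposited table holds these on a linear scale, with 35.4% to 36.0% of each column below 0. Sorted values were equal for 99.73% of probes between the arrays of slide 1 but for 4.192% across slides, so all 6 columns were quantile normalized again. Values under each array's background level were raised to it before log2 was taken, which tends to understate folds of dim genes. Because the level differed between arrays, this step can also add small differences. The S1pr1 probe, at background on all arrays, gets pair values of 0.28, 0.08 and -0.10 in this way. Of the probes, 34885 had 1 symbol, 18 several and 10378 none, and 34807 symbols were matched by gene identifier to the RefSeq table of GRCm38.p6. Probes above background on at least 2 arrays were kept (17294).

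The genotype effect was fitted by lmFit and eBayes of limma 3.58.1 (R 4.3.3), with no block, since the methods name limma but no block, and p-values were adjusted over all genes by the Benjamini-Hochberg method. Scripts were tested on simulated data. Replicate numbers were treated as pairs, which is an assumption. Both arrays of replicate 1 share a slide. The slide does not tell which Ctrl and CKO arrays of replicates 2 and 3 belong together. Deviations from the group means correlated at 0.51, 0.49 and 0.56 within numbers, and the slide, which sets replicate 1 apart, can enter these values. Correlations between numbers were negative, which follows in part from centring each group on its own mean and adds no support. Members and gene lists were chosen with earlier results of these data known. Named genes were all members, Prdm1, Foxp3, up to 4 genes at the study's thresholds per list by smallest p, and 3 genes most correlated with each member at the thresholds. Alternatives were blocks for replicate or slide, no second normalization, another floor or filter, an intensity trend, the mean of probes and leaving out arrays. The test between probes and the fits without replicate 3 were added after the values were seen. Teff cells and detection p-values were not used here.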

Additional observations from a re-analysis of the deposited data

How the results depend on the processing

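Foxp1 met the study's thresholds under every alternative run, while Klf2, Klf13, Klf6 and Il7r crossed them under some. Ctrl and CKO arrays with the same replicate number deviated together, and with the replicate block 183 genes in place of 26 passed an adjusted p under 0.05, 1154 genes in place of 712 and 2045 probes in place of 1224 met the study's thresholds, and among the 7 tested members Foxp1 and Klf2 passed adjustment and no other call changed. At an adjusted p under 0.05 the count of genes was 16 with the slide as a block, 43 with no floor and a pseudocount of 16, and 150 with no filter on dim probes (2449 probes then met the study's thresholds, and Foxp1 passed with a limma adjusted p of 0.00743). It was 0 by limma on slide 2 alone and 0 without both arrays of replicate 3, where 611 and 590 genes had an unadjusted p under 0.05. Leaving out 1 array gave 1 to 10 genes, with 10 without Ctrl replicate 2 and 3 without CKO replicate 3. The members at the study's thresholds numbered 1 on slide 2 alone (Foxp1) and 1 to 4 with 1 array left out, namely Foxp1 alone when Ctrl replicate 1 or 2 or CKO replicate 3 was missing, and Il7r in addition without Ctrl replicate 3. With the mean of probes Il7r went from -0.46 to 0.0695, the other tested Il7r probes having values of 0.06, 0.13 and 0.54. Values near 0 also changed sign without both arrays of replicate 3. Foxo1 was then -0.0244, its dimmer probe -0.0906, the dimmer Klf13 probe 0.0354 and the Il7r probe ILMN_1237567 -0.0982. With 1 array left out these ran from -0.38 to 0.56 for the dimmer Foxo1 probe, from -0.35 to 0.11 for the dimmer Klf13 probe, from -0.31 to 0.48 for ILMN_1237567 and from -0.28 to 0.40 for the Il7r probe ILMN_2659739. The cause of these changes was not tested. The share of lower calls stayed between 55.07% and 62.18%. With 3 arrays a group, and S1pr1, Klf3 and most Foxo3 probes at background, the number of arrays and the signal over background limit what can be called.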
